A study of Rattus norvegicus with 6 samples.

Results

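The 10 genes described here, Atf3, Atf4, Ddit3, Trib3, Chac1, Ppp1r15a, Gadd45a, Gadd45b, Gadd45g and Sesn2, encode transcription factors and effectors of the cellular stress response. They were chosen by symbol, with the fall of Atf3 already known from these data, and all 10 were found among the 17327 genes in the files. The question was whether the fall of Atf3 after soluble Neuregulin1 (NRG1) is shared by other stress genes. Polyadenylated RNA was sequenced from primary cultures of Schwann cells, the glia that ensheathe peripheral axons, taken from the sciatic nerves of adult female Wistar rats. Cells of 3 independent cultures, numbered 1 to 3, were starved for 18 h in medium with 2% serum and then kept for 6 h either with 10 nM NRG1β1 (NRG1, n = 3) or with the same volume of ligand buffer (mock, n = 3). Both groups had 10 μM forskolin, which raises cAMP, throughout, and both came from cells that had been grown with a neuregulin before starvation, so the mock cells had been without this factor since starvation began.

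Many of these genes belong to the integrated stress response. In that pathway kinases that sense amino acid shortage, unfolded protein, viral RNA or haem shortage phosphorylate the initiation factor eIF2, most translation slows, and translation of the transcription factor ATF4 rises. ATF4 then induces ATF3, DDIT3 (CHOP), TRIB3, CHAC1, SESN2 and PPP1R15A (GADD34), the last of which brings a phosphatase to eIF2 and ends the response. ATF4 is controlled largely at translation, so the amount of its mRNA is not a measure of its activity. ATF3 and the GADD45 genes are also induced outside this pathway, by DNA damage, cytokines and stress MAP kinases. In peripheral nerve, ATF3 is best known as a marker of injured neurons and of Schwann cells that have lost their axons.

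The 6 libraries held between 6821590 and 15475018 counts on genes. Levels are given as CPM, the count of a gene scaled to the normalised library size, and the floor of 3 counts corresponded to 0.194 to 0.440 CPM. Of 7 Schwann cell markers, 6 were over this floor in all 6 samples, while Gap43 had 5 counts or fewer. Macrophage markers summed to 10.3 CPM at most and endothelial markers to 14.9 CPM at most, with Ptprc, Pecam1 and Cdh5 at 0 in every sample. Of the neuronal markers, Rbfox3 was at 0, Snap25 had 8 counts or fewer and Prph 6 or fewer. Nefl alone was high among them, at 1502.5 CPM or more. Culture 1 stood apart. Over the floor in both of its samples were all 6 fibroblast markers, against 2 of the 6 in all samples of cultures 2 and 3. Thy1 was counted at 1268.4 CPM in its mock and 1143.3 CPM in its NRG1 sample, and Dcn at 611.2 and 427.0 CPM, while neither had a single count in cultures 2 and 3. The summed fibroblast markers ranged from 14063 to 53425 CPM in the mock and from 13693 to 57718 CPM in the NRG1 group, both highest in culture 1. In cultures 2 and 3 this sum was mostly Col1a1, at 13620 of 14063 CPM in mock 3 and 13413 of 13693 CPM in NRG1 2. Such sums do not compare the amounts of the cell types. The summed Schwann cell markers ranged from 3109 to 6929 CPM in the mock and from 2837 to 6361 CPM in the NRG1 group, both lowest in culture 1. In such bulk samples fewer cells of a type and less RNA per cell cannot be told apart. Results that rest on culture 1 are given with and without it. Each fit without 1 culture holds fewer pairs, and its adjusted p cannot be set against those of the full fit. A gene that does not pass there is not thereby shown to depend on the culture left out. In the fit without culture 1 the SE of the log2 fold change of Atf3 was larger (0.21 against 0.15). Its adjusted p in edgeR's quasi-likelihood test was nevertheless smaller (1.12e-41 against 6.15e-08).

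Promoter sequences of the genes were taken from RefSeq (GRCr8 assembly, a later build than the rn5 assembly of the counts), which matched 9 of the 10 symbols, all but Atf3. The 250 bases before each start were searched on both strands for TGACGTCA, the full cAMP response element, for TGACTCA, the AP-1 site, and for TGATGNAA, the core of the element that ATF4 binds together with C/EBP factors. The stretches that hold a full cAMP response element or the ATF4 core are shown, because these motifs are known binding sites of the CREB and ATF factors, beside the promoter of Gadd45a, which fell with NRG1 and held none of the 3 motifs. Each runs 5′ to 3′ along the strand of the gene, and capitals mark the match.
Gadd45a, chr4:97486800-97487049, minus strand: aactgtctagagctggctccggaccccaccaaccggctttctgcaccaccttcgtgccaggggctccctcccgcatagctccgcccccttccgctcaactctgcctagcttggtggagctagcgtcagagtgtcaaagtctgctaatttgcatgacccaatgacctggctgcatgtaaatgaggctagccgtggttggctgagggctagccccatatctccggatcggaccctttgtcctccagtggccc
Ppp1r15a, chr1:105139597-105139722, minus strand: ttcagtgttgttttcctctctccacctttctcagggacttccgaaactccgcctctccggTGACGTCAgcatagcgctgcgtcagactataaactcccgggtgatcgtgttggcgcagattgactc
Chac1, chr3:126795904-126796031, plus strand: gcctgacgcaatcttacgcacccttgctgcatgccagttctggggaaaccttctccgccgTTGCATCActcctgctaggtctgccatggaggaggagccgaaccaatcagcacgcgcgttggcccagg
Trib3, chr3:161275534-161275614, minus strand: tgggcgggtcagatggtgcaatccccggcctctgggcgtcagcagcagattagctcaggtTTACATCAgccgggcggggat
Gadd45g, chr17:13530406-13530533, minus strand: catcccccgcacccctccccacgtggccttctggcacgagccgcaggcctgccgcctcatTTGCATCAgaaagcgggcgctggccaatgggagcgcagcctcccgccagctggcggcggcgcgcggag
In Chac1, Trib3 and Gadd45g the match lies on the other strand, so it reads as the reverse complement of the core. It begins 167 bases before the start in Chac1, 21 in Trib3 and 122 in Gadd45g, and the cAMP response element of Ppp1r15a begins 66 bases before its start. The AP-1 site was found in the promoter of Ddit3, 241 bases before its start. None of the 3 motifs was found in the promoters of Atf4, Gadd45b and Sesn2 either. The changes of these genes with NRG1 did not pass the test over all 3 cultures given below. Among all 33469 promoters of the same length, 3.4% held the ATF4 core, 1.59% the cAMP response element and 4.05% the AP-1 site. A match is a description of the letters and not evidence that a factor binds there.

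NRG1 lowered Atf3 and Gadd45a, and none of the other 8 stress genes passed the test. Atf3, a basic leucine zipper (bZIP) factor that represses or activates genes depending on its partner, fell 8.14-fold, with a log2 fold change of -3.03 (SE 0.15, 95% interval from -3.35 to -2.70, adjusted p = 6.15e-08 in edgeR's quasi-likelihood test with the culture as a block). Gadd45a, which encodes a small protein that slows the cell cycle and binds the stress kinase MAP3K4, fell 2.60-fold, with a log2 fold change of -1.38 (SE 0.16, 95% interval from -1.71 to -1.05, adjusted p = 3.87e-05). Earlier results of these data were at hand when the 10 genes were put together, so these falls are a description and not independent evidence. A gene passed the test at an adjusted p of at most 0.01 over all 9740 genes tested, and all 10 stress genes were among these. By this rule 2 of 10 stress genes were lower with NRG1, while 5.51% of all genes tested were. No stress gene was higher in edgeR, while 6.31% of all genes tested were. At an unadjusted p under 0.05, 5 stress genes were lower and 0 were higher, against 18.7% and 17% of all genes tested. At an adjusted p of at most 0.01, DESeq2 with the block also gave 2 stress genes lower and 0 higher. Of all 9740 genes in that DESeq2 fit, 433 were lower and 590 higher. In it 4 of the 10 stress genes had an unadjusted p under 0.05, as had 2758 of the 9740. Both Atf3 and Gadd45a also had a log2 fold change under -1, as had 1.91% of all genes tested, while no stress gene passed with one over 1, as 1.56% of all genes tested did. The median log2 fold change of the 10 genes was -0.24, against -0.026 over all genes tested.

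**Figure D1:**
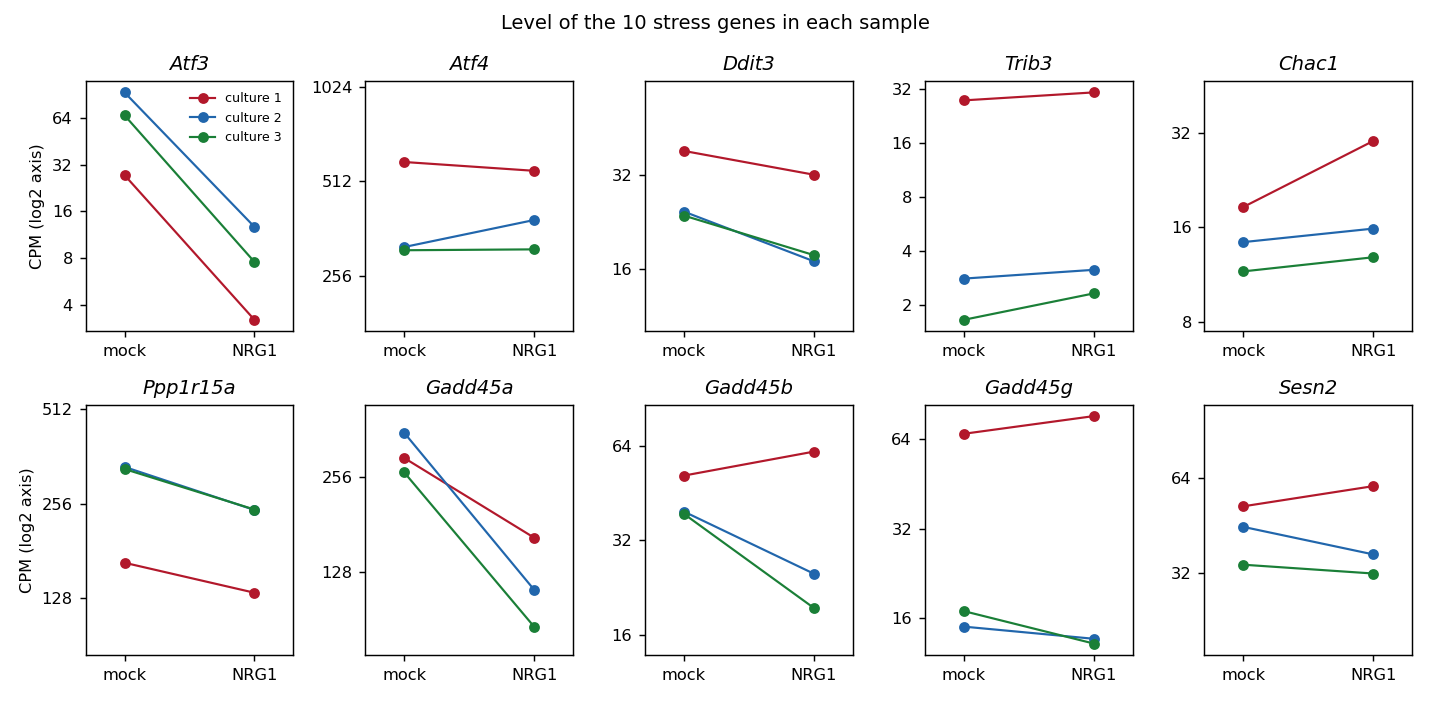
Level of each of the 10 stress genes in the 6 samples, in CPM on a log2 axis whose range differs between panels, with mock on the left, NRG1 on the right and a line joining the samples of 1 culture. All 3 lines of Atf3 and Gadd45a fall, while for Trib3 and Gadd45g the distance between culture 1 and cultures 2 and 3 exceeds any difference between mock and NRG1.

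Atf3 was counted at 27.4, 93.4 and 66.5 CPM in mock samples of cultures 1, 2 and 3, and at 3.20, 12.7 and 7.55 CPM in the NRG1 samples. The raw counts behind these levels were 205, 631 and 844 in mock and 24, 113 and 117 in NRG1 samples. Every NRG1 sample was below every mock sample, which held for 2 of the 10 stress genes, Atf3 and Gadd45a, and for 9.94% of all genes tested. No stress gene had every NRG1 sample above every mock sample, as 10.2% of all genes tested had. The mock level of culture 1 was the lowest of the 3, and the mock level of culture 2 was 3.41 times as high. The size of the fall did not follow these levels. Within the 3 pairs it was 8.11-, 7.25- and 8.60-fold, and without culture 1, which had the highest summed fibroblast markers, the log2 fold change was -3.01 (SE 0.21). Over all genes tested, Atf3 had the third lowest log2 fold change, with rank 3 of 9740, and the next stress gene was Gadd45a with rank 84. The ratio of NRG1 to mock was thus alike in the 3 cultures, while the level was not.

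Gadd45a was counted at 294.4, 354.0 and 264.8 CPM in the mock samples and at 164.1, 112.0 and 85.5 CPM in the NRG1 samples of cultures 1, 2 and 3. The groups did not overlap, but the fall was smallest in culture 1. It was 1.79-fold there, against 3.15-fold in culture 2 and 3.09-fold in culture 3. Without culture 1 the log2 fold change was -1.64 (SE 0.18, adjusted p = 1.07e-16). Gadd45a was also the only one of the 10 genes whose level did not pass the test for a difference between cultures described further on (adjusted p = 0.0697). The part of the fibroblast markers of culture 1 in its smaller fall was not tested.

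The other GADD45 genes encode proteins of the same family, which bind the same kinase and cell cycle proteins. Gadd45b was counted at 51.4, 39.5 and 38.8 CPM in mock and at 61.3, 25.1 and 19.5 CPM in NRG1 samples of cultures 1, 2 and 3. It was lower with NRG1 in cultures 2 and 3 and higher in culture 1, with log2 ratios of -0.65, -0.99 and 0.25, so the groups overlapped. Over the 3 cultures its log2 fold change of -0.46 (SE 0.19, adjusted p = 0.0982) did not pass the test. Without culture 1 it was -0.83 (SE 0.20) and passed (adjusted p = 0.000635), which brought the number of stress genes lower with NRG1 to 3 of 10, against 6.05% of the genes tested in that fit, while still 0 were higher, against 5.94%. The call on Gadd45b thus differed between the fits with and without culture 1, whose adjusted p are not comparable. The part of culture 1 in this change of call was not tested. Gadd45g was counted at 66.8, 14.9 and 16.9 CPM in mock and at 76.7, 13.6 and 13.1 CPM after NRG1. The fitted log2 fold change was -0.079 (95% interval from -0.40 to 0.24), and its sign changed when the culture block or culture 3 was left out. The fall of Gadd45a was therefore not shown by Gadd45g in these samples, and by Gadd45b only without culture 1, although the differences between the 3 genes were not tested.

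Atf4, the transcription factor at the centre of the integrated stress response, was counted at 590.6, 316.8 and 309.4 CPM in mock and at 553.7, 386.2 and 311.4 CPM in NRG1 samples. The groups overlapped almost entirely. Its log2 fold change was 0.066 with a 95% interval from -0.20 to 0.34, an interval that leaves out a change of the size seen in Atf3 or Gadd45a, and its sign changed without culture 2. Trib3, a pseudokinase that restrains ATF4 and AKT signalling, was counted at 27.8, 2.81 and 1.65 CPM in mock and at 30.8, 3.15 and 2.32 CPM in NRG1 samples. It was slightly higher with NRG1 in each pair, but its log2 fold change of 0.23 (95% interval from -0.22 to 0.68) did not pass the test, and in cultures 2 and 3 it rested on 19 to 36 counts a sample.

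Chac1, an enzyme that breaks down glutathione, was counted at 18.6, 14.4 and 11.6 CPM in mock and at 30.1, 15.8 and 12.8 CPM in NRG1 samples. Its 3 log2 ratios were 0.69, 0.14 and 0.15, so the difference was largest in culture 1. The log2 fold change of 0.34 (SE 0.17, adjusted p = 0.167) did not pass the test, and without culture 1 it was 0.15. Sesn2, a sensor of leucine that restrains the growth kinase mTORC1, was counted at 52.0, 44.7 and 33.9 CPM in mock and at 60.3, 36.5 and 31.8 CPM in NRG1 samples. Its log2 ratios of 0.21, -0.29 and -0.093 did not share a direction, and its 95% interval ran from -0.34 to 0.24. These 2 targets of ATF4 thus resembled Atf4 and Trib3 in that their intervals all included 0.

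Ddit3 and Ppp1r15a came closer to the test. Ddit3, a bZIP factor that promotes cell death under lasting stress, was counted at 38.1, 24.4 and 23.7 CPM in mock and at 32.0, 17.0 and 17.8 CPM in NRG1 samples. It was lower with NRG1 in each pair, with log2 ratios of -0.25, -0.52 and -0.41, and its log2 fold change was -0.39 (SE 0.14, adjusted p = 0.0564). Ppp1r15a was counted at 166.1, 335.2 and 330.0 CPM in mock and at 133.3, 244.4 and 245.2 CPM in NRG1 samples. Its log2 ratios of -0.32, -0.46 and -0.43 also shared a direction, and its log2 fold change was -0.40 (SE 0.12, adjusted p = 0.0235). At an adjusted p of at most 0.05 Ppp1r15a would be the third stress gene to pass. Both intervals, from -0.69 to -0.09 for Ddit3 and from -0.65 to -0.15 for Ppp1r15a, lay above the interval of Gadd45a. Counting by direction alone, 4 of 10 stress genes were lower in all 3 pairs and 2 were higher, against 30% and 25.9% of all genes tested, so the 6 genes with 1 direction were close to the 56% of all genes tested.

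**Figure D2:**
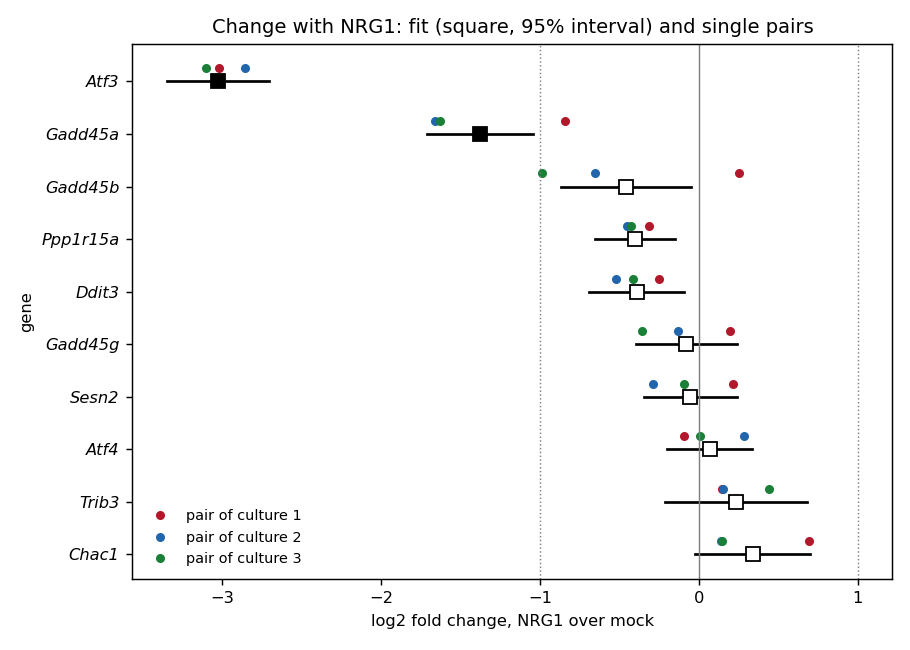
Log2 fold change of NRG1 over mock for each stress gene, with the fitted value as a square (filled where the adjusted p is at most 0.01), its 95% interval as a bar and the ratio of each culture's pair as a coloured dot; dotted lines mark -1 and 1. The 3 dots of Atf3 lie between -3.10 and -2.86, whereas those of Gadd45b lie on both sides of 0.

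Without the culture as a block, edgeR gave Atf3 an adjusted p of 0.179 and Gadd45a one of 0.175, with log2 fold changes of -2.99 and -1.34, so neither passed. In that fit no gene of the 9740 passed in either direction, while 1334 genes, 2 of them stress genes, had an unadjusted p under 0.05. DESeq2 without the block, which was tried only once the results were known, still called both, with adjusted p of 6.18e-05 and 0.000643. The block separates the change with NRG1 from the differences between cultures. In the edgeR test for such differences, given next, Atf3 passed (adjusted p = 8.52e-06) and Gadd45a did not (adjusted p = 0.0697). Why neither passed in edgeR without the block was not tested.

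The stress genes differed between cultures more often than they differed with NRG1. In the same fit, 9 of the 10 passed the test for any difference between the 3 cultures, all but Gadd45a, while 23.4% of all genes tested did. Trib3 differed most, with a mean log2 CPM in culture 1 that was 3.49 above the mean of cultures 2 and 3, an 11.2-fold difference (adjusted p = 7.94e-09). Gadd45g was next with a difference of 2.28, or 4.86-fold (adjusted p = 4.71e-08). Atf4, Ddit3, Chac1, Gadd45b and Sesn2 were also higher in culture 1, by between 0.62 and 0.93 on the log2 scale. Atf3 and Ppp1r15a went the other way, with log2 CPM lower in culture 1 by 1.54 and 0.94. In all, 7 of the 10 passed with a higher level in culture 1 and 2 with a lower level, against 12.2% and 11.1% of all genes tested. Atf4 and the ATF4 targets Trib3, Chac1, Ddit3 and Sesn2 were thus on the high side of culture 1, and Atf3 and Ppp1r15a, also targets of ATF4, were on the low side.

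These differences rest on culture 1. With that culture left out, none of the 10 genes passed the edgeR test between cultures 2 and 3, where 2.47% of the genes tested did. The smallest adjusted p among them then was that of Atf3 (0.0700), and that of Trib3 was 0.605. Culture 1 is the culture in which all 6 fibroblast markers were over the floor and the summed Schwann cell markers were lowest. Col1a1 and Col3a1 were counted in all 6 samples, at 13413 and 169.9 CPM or more, and both were highest in culture 1. Col3a1 was at 22402 and 23218 CPM there, against 838 CPM or less in the other samples. Both collagens passed the edgeR test between cultures (adjusted p = 0.00251 for Col1a1 and 1.13e-09 for Col3a1), while Cdh19 did not (adjusted p = 0.423). Pdgfra was at 870.1 and 827.2 CPM in the 2 samples of culture 1 and at 1.61 CPM or less in the other 4. Sox10 was at 395.9 and 477.3 CPM in culture 1, against 1062.8 CPM or more in the others. The part of these other cells in the levels of Trib3 and Gadd45g was not tested, and with 1 culture of this kind it cannot be told apart from other differences between the cultures.

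**Figure D3:**
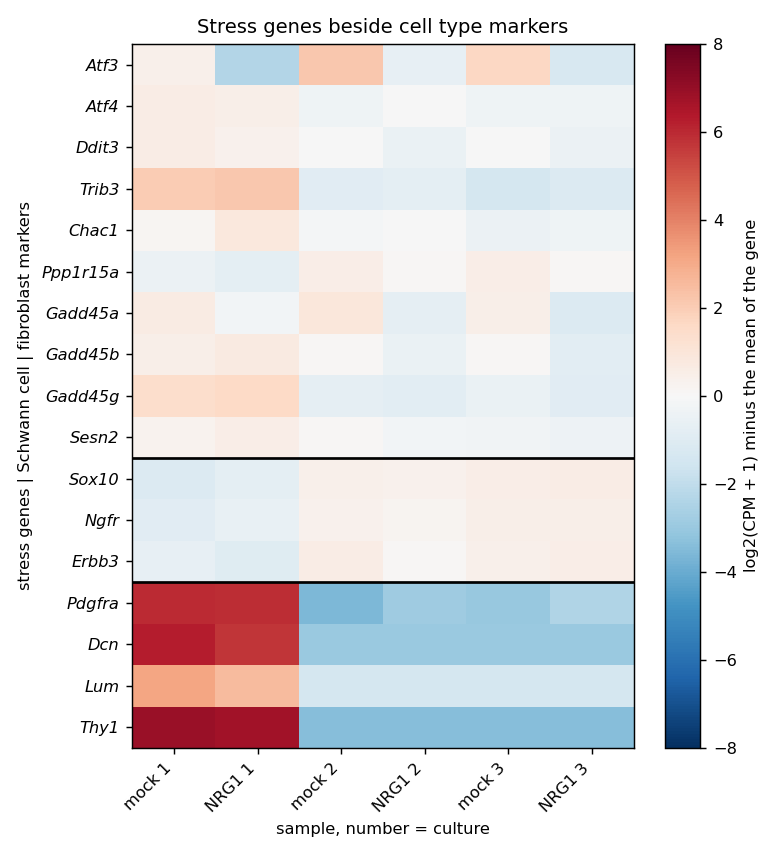
Stress genes (top), Schwann cell markers (middle) and fibroblast markers (bottom) in the 6 samples, ordered by culture, with colour for log2(CPM + 1) minus the mean of the gene. Trib3 and Gadd45g are highest in both samples of culture 1, as are Pdgfra, Dcn, Lum and Thy1, while Sox10, Ngfr and Erbb3 are lowest there.

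The 5 genes whose profile over the 6 samples was nearest to that of Atf3 were not stress genes. Likeness was measured as the root mean square difference in log2 CPM over the 6 samples after the mean of each gene had been taken off, a value that takes in both the fall with NRG1 and the differences between cultures. The nearest were Wnt6 (0.45), which encodes a secreted Wnt ligand, Dnm3 (0.51), a dynamin of endocytosis, Plg (0.52), the precursor of plasmin, Emp2 (0.58), a tetraspan protein of the PMP22 family, and Sema4f (0.66), a semaphorin. Their log2 fold changes with NRG1 were -3.58, -2.20, -2.81, -1.87 and -1.69, and all 5 passed the test. Wnt6 and Plg were counted at 5.67 CPM or less and at 10.1 CPM or less, so their profiles are imprecise. Among the stress genes the nearest to Atf3 was Gadd45a with a difference of 1.22, at rank 201 of the 9739 other genes, followed by Ppp1r15a with 1.35 at rank 454. Trib3 was among the farthest, with a difference of 2.87 at rank 9621. The points of this measure are 6 samples of 3 cultures and share their libraries, and no test was made.

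Lists of genes from the pathways around the stress genes were read from the same fit. Known ATF4 targets outside the 10 genes, mostly amino acid transporters, synthetic enzymes and tRNA synthetases, did not fall with NRG1 as a group. Of 27 tested among 32 listed, 5 were higher, 1 was lower and 21 did not pass, and the median log2 fold change was 0.29. The share higher was 18.5%, against 6.31% of all genes tested. Shmt2, a mitochondrial enzyme of serine and one-carbon metabolism, rose from 119.5 ± 10.1 to 243.7 ± 6.99 CPM (SD, n = 3), or by 1.03 on the log2 scale (SE 0.12, adjusted p = 5.39e-05). The amino acid transporters Slc7a5 and Slc7a1 rose by 0.68 and 0.63 on the log2 scale. The remaining 2, named after their values were seen, were the tRNA synthetases Wars and Cars. Ddit4, an inhibitor of mTORC1, was the 1 that fell, by 0.69 on the log2 scale. Asns, a widely used readout of ATF4 named for that reason outside the rule for named genes, had a log2 fold change of -0.010 (SE 0.12). In fits that each left out 1 culture, the number of higher genes was 3 without culture 1, 5 without culture 2 and 2 without culture 3. Of all genes tested in these fits, 590 of 9926, 524 of 10339 and 408 of 10160 were higher. Ddit4 passed only without culture 1, where its adjusted p was 1.74e-05. Like the stress genes, the ATF4 targets differed between cultures, with 17 of 27 passing that test, 15 of them higher in culture 1, and 3 of 27 passing between cultures 2 and 3, against 23.4%, 12.2% and 2.47% of all genes tested.

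Upstream of ATF4, Eif2b2, a subunit of the factor that recharges eIF2, rose by 0.54 on the log2 scale (adjusted p = 0.00448). It passed neither without culture 1 nor without culture 3, although its rise ran from 0.49 to 0.58 over the fits that left out 1 culture. The other 11 of 12 tested genes for eIF2 kinases, the phosphatase partner Ppp1r15b and the eIF2 and eIF2B subunits did not pass. The shares were 8.33% higher and 0% lower, against 6.31% and 5.51% of all genes tested. None of this list was lower with NRG1 in edgeR or in DESeq2 with the block. Without culture 2, 1 passed as lower, as did 392 of all 10339 genes tested in that fit. At an unadjusted p under 0.05, 6 of the 12 were higher and 2 were lower, against 17% and 18.7% of all genes tested. Of 20 genes of the unfolded protein response of the endoplasmic reticulum, all tested, Dnajb9, a co-chaperone, fell by 0.71 on the log2 scale (adjusted p = 0.000879). It did not pass without culture 3 (adjusted p = 0.0163), and its fall was 0.62 to 0.77 in size over the fits that left out 1 culture. The other 19 did not pass, and the median was -0.12. The share lower was 5%, close to the 5.51% of all genes tested. Hspa5, the chaperone that is the usual readout of this response, was at 1737.8 ± 349.4 CPM in mock and 1618.5 ± 260.7 CPM in NRG1 samples (SD, n = 3), with an adjusted p of 0.679. No gene of that list was higher in edgeR or DESeq2 with the block, nor had any an unadjusted p under 0.05 in that direction. Of all genes tested in edgeR, 6.31% and 17% did.

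Among listed genes that DNA damage induces, a part of the response in which Gadd45a is best known, 4 of 16 tested fell and 1 rose. The median log2 fold change was -0.26. The share lower was 25%, against 5.51% of all genes tested. Btg2, an antiproliferative gene, fell by 1.63 (SE 0.31), Plk2, a polo-like kinase, by 0.93 (SE 0.13), Tp53inp1 by 0.79 (SE 0.17) and Sesn1, a relative of Sesn2, by 0.65 (SE 0.13) on the log2 scale. Of these, Plk2 passed in each of the 3 fits that left out 1 culture. Btg2 did not pass without culture 3 (adjusted p = 0.0225), nor Tp53inp1 without culture 2 (adjusted p = 0.016). Sesn1 did not pass without culture 1 or culture 3 (adjusted p = 0.0109 and 0.0337). The size of its fall nevertheless stayed between 0.62 and 0.66 over the fits that left out 1 culture. The fall of Btg2 moved most, from a size of 1.08 without culture 3 to 2.31 without culture 1 on the log2 scale. The gene that rose, named after its values were seen, was Aen, a nuclease of apoptosis, by 0.53. It did not pass without culture 1 (adjusted p = 0.0454) or culture 3 (adjusted p = 0.0443). Its rise ran from 0.49 to 0.59 over the fits that left out 1 culture. Cdkn1a, the cell cycle inhibitor that is a standard readout of this response, had a log2 fold change of -0.45 (SE 0.13, adjusted p = 0.0248) and did not pass, and Mdm2 had one of -0.11 (adjusted p = 0.539).

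ATF3 and ATF4 act as dimers with other bZIP factors. Of 24 tested genes for other bZIP factors, not all of them known partners, 3 fell, 1 rose and 20 did not pass. The median log2 fold change was -0.14. The shares were 12.5% lower and 4.17% higher, against 5.51% and 6.31% of all genes tested. Fos, an AP-1 subunit, fell from 105.8 ± 46.1 to 34.4 ± 14.6 CPM (SD, n = 3), so its fitted log2 change was -1.61 (SE 0.12, adjusted p = 2.21e-06). Fosl1, another AP-1 subunit, rose from 29.6 ± 12.3 to 92.3 ± 10.4 CPM (SD, n = 3), so its fitted log2 change was 1.69 (SE 0.15, adjusted p = 8.00e-06). Both passed whichever culture was left out. Cebpa fell by 0.83 and Nfe2l2, which encodes the oxidative stress factor NRF2, by 0.59 on the log2 scale, the latter not passing without culture 3 (adjusted p = 0.0982). Jun, the usual partner of ATF3, was at 360.0 ± 101.7 CPM in mock and 326.4 ± 100.7 CPM in NRG1 samples (SD, n = 3), with a log2 fold change of -0.15 (SE 0.12, adjusted p = 0.398). The fall of Fos was thus smaller than that of Atf3 but, like it, close to the same size in each pair, with log2 ratios of -1.51, -1.58 and -1.70.

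None of 14 tested genes for GADD45 partners and stress MAP kinases passed the edgeR test in either direction, against 11.8% of all genes tested. DESeq2 with the block gave 0 as well. At an unadjusted p under 0.05 in edgeR, 2 of the 14 were higher and 0 lower, against 17% and 18.7% of all genes tested. Without culture 1, 1 gene of that list was higher, against 5.94% of the genes tested in that fit. Map3k4 and Pcna, whose products bind GADD45 proteins, had log2 fold changes of 0.12 (SE 0.13) and 0.13 (SE 0.14). Of 12 NRF2 target genes, Srxn1, an enzyme that repairs oxidised peroxiredoxins, fell by 0.54 on the log2 scale (adjusted p = 0.00715). It did not pass without culture 2 or culture 3 (adjusted p = 0.0193 and 0.0979). Its fall was 0.45 to 0.67 in size over the fits that left out 1 culture. The share lower was 8.33%, against 5.51% of all genes tested. Without culture 1 the number lower was 3 of 12, against 6.05% of the genes tested in that fit. None of these 12 was higher in either tool, nor at an unadjusted p under 0.05, against 6.31% and 17% of all genes tested in edgeR. Among the closest relatives of the stress genes, Trib1 and Trib2, the relatives of Trib3, rose by 0.74 (SE 0.15) and 0.87 (SE 0.20) on the log2 scale, while Sesn1 and Ddit4 fell as given above, out of 9 tested. The shares were 22.2% higher and 22.2% lower, against 6.31% and 5.51% of all genes tested. Trib1 passed only without culture 2, and Trib2 only without culture 1, among the fits that left out 1 culture. Over these fits the rise of Trib1 ran from 0.66 to 0.79 and that of Trib2 from 0.55 to 1.16. Over all lists, 20 different genes passed the test, and 5 of them did so whichever culture was left out, namely Shmt2, Plk2, Fos, Fosl1 and Cebpa. The different genes tested over the lists were not counted, so the 20 cannot be set against the 11.8% of all genes tested. The share of all genes that passed whichever culture was left out was not taken, so the 5 are a description only.

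**Figure D4:**
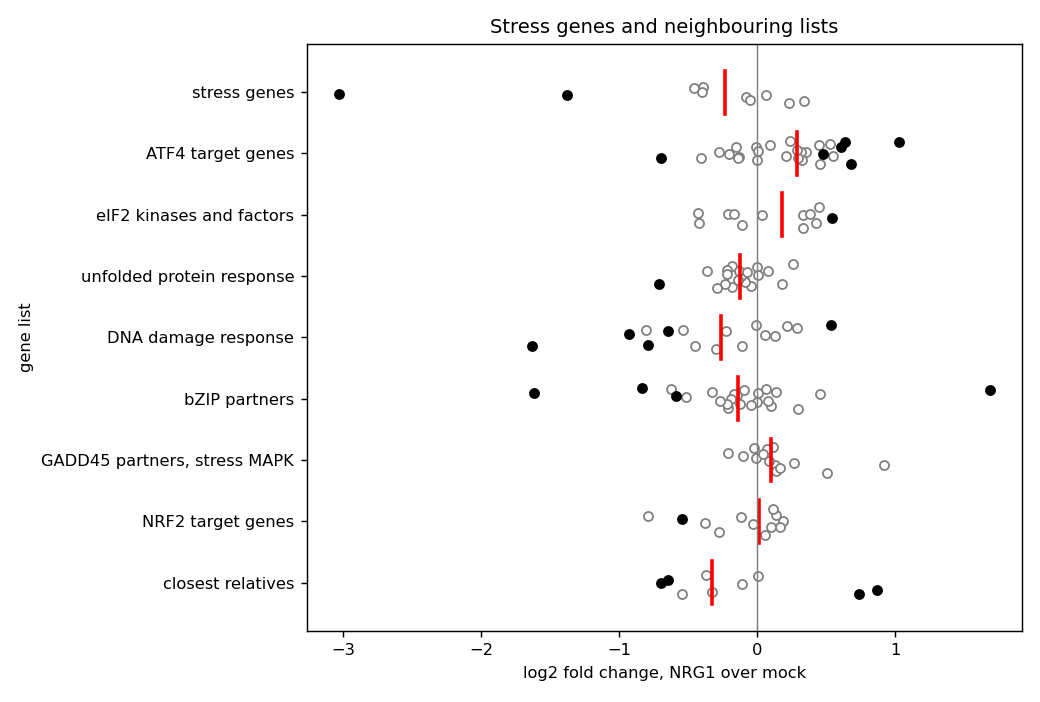
Log2 fold change of NRG1 over mock for each tested gene of the 10 stress genes and of the lists around them, with filled points for an adjusted p of at most 0.01 and a red line at the median of the list; some genes stand in more than 1 list, and the vertical position within a list carries no value. Atf3 at -3.03 and Gadd45a at -1.38 stand to the left of the other 8 stress genes, and the medians of all 9 rows lie between -0.33 and 0.29.

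Some Schwann cell markers also differed between the groups. Cdh19 and S100b fell with NRG1, by 1.10 and 0.58 on the log2 scale, with adjusted p of 7.93e-05 and 0.00883, while Sox10, Ngfr, Erbb3 and L1cam did not pass the test. Without culture 1 S100b did not pass (adjusted p = 0.0571). The fibroblast markers Col1a1, Col3a1 and Pdgfra were tested and did not pass. Col3a1 had a log2 fold change of -0.98 (adjusted p = 0.0118) and was lower without culture 1, by 1.48 on the log2 scale (adjusted p = 3.16e-13). The part of these markers in the falls of Atf3 and Gadd45a was not tested. In cultures 2 and 3 Atf3 fell 7.25- and 8.60-fold and Gadd45a 3.15- and 3.09-fold. Dcn, Lum and Thy1 had no counts there, but Col1a1 and Col3a1 did, and Col3a1 fell 3.01- and 2.60-fold. Col1a1 fell 1.60-fold in culture 2 and rose 1.01-fold in culture 3. Pdgfra, at 1.61 CPM or less, was higher with NRG1 in both.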

How the data were processed

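RNA-seq counts of 3 mock and 3 NRG1 samples were analysed. The authors aligned reads to the rn5 genome (TopHat 2.0.10, per the labels), summarised them over RefSeq genes in HTSeq and deposited the raw counts, which were used as given. The 5 summary lines of each file, between 50.1% and 53.0% of its alignments, were kept out. Whether HTSeq counted by strand is not given in the sources used here.

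Groups and culture numbers came from the sample titles. Genes were filtered with filterByExpr (minimum count 10), which kept 9740 and removed 7587. The design was culture plus condition, with TMM normalisation and edgeR 4.0.16 quasi-likelihood tests in R 4.3.3 (DESeq2 1.42.0 as an alternative), Benjamini-Hochberg adjustment over all genes tested, an adjusted p of at most 0.01 and, for regulated genes, an absolute log2 fold change over 1. Standard errors were derived from the F statistic as |log2 fold change|/√F. CPM used the normalised library sizes, and log2 CPM, pair ratios included, a prior count of 2. Differences between cultures were tested through both culture coefficients. Mock and NRG1 samples of 1 number came from 1 independent experiment, and their deviations from the group means correlated across genes with r between 0.67 and 0.91, against -0.80 to 0.51 for different numbers. No 2 samples agreed within sampling noise (lowest chi-square per degree of freedom 21.4). Alternatives were no block, DESeq2, RLE, no filter, at least 10 counts in every sample, an adjusted p of 0.05 and leaving out each culture.

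The 10 genes, the lists and the tests were chosen with earlier results of these data known. Genes named from a list are at most the 4 with the largest change among those passing, and the 5 genes nearest to Atf3 in profile. Wars, Cars, Aen and the usual readouts or partners Asns, Hspa5, Cdkn1a, Mdm2, Jun, Map3k4 and Pcna lie outside this rule and were named after their values were seen. A few listed genes are not reported here and were left out of the counts of their lists. Gene lengths were not used, so levels are not compared between genes. The planned comparison of GADD45 protein sequences was not made, as protein sequences were not used here. Scripts were tested on simulated counts.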

Additional observations from a re-analysis of the deposited data

How the results depend on the processing

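Atf3 and Gadd45a passed the test in every alternative but edgeR with no replicate block. Without the block, which gives up the pairing of samples from 1 culture, 0 stress genes passed and the number of genes passing fell from 615 higher and 537 lower to 0 and 0, and of regulated genes from 152 higher and 186 lower to 0 and 0. DESeq2 with no replicate block, an alternative chosen with the data in view, gave 111 higher and 67 lower, or 57 and 40 regulated. An adjusted p of 0.05 gave 1124 higher and 1136 lower, and no low-count filter 857 lower. Leaving out each culture in turn gave 408 to 590 genes higher and 253 to 601 lower, and 133 to 202 regulated higher and 122 to 299 regulated lower. The number of stress genes that differ between cultures was 0 without replicate 1 and 7 to 9 in the other fits. Signs turned for genes near 0: Gadd45g (0.063 with no replicate block, 0.080 with DESeq2 and no replicate block, and from -0.26 without replicate 1 to 0.084 without replicate 3), Atf4 (from -0.039 without replicate 2 to 0.15 without replicate 1) and Sesn2 (from -0.19 without replicate 1 to 0.061 without replicate 2). The cause was not tested for these changes. With 24 Atf3 counts in the smallest sample and 19 to 36 Trib3 counts in 4 samples, depth limits small differences.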
